A study of Homo sapiens with 4 samples.

Results

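Skipping of exons in the genes of the nuclear pore and of nuclear transport was examined in 293T cells, a human embryonic kidney line, with and without an antisense oligonucleotide (ASO) against SNORD89. The genes were those whose symbols start with NUP and a digit, IPO and a digit, XPO, KPNA, KPNB, TNPO or RANBP. In the table of skipped exons they had 504 events in 48 genes, and 464 of these (92.1%), on 379 exons, averaged at least 20 junction reads over the 4 libraries. All 48 genes kept at least 1 event. The 464 events are part of 54503 events that reached the same depth, out of 65601 in the table. An event is a set of 3 exons whose middle exon is either joined to its neighbours or left out, and a junction read is a read that spans a splice junction. At the limit of 20 reads, the shallowest events kept were in IPO7 (21.0 reads), RANBP17 (21.5 reads) and XPO4 (22.8 reads), and the deepest left out were in NUP85 (19.8 reads), RANBP3 (18.5 reads) and RANBP17 (18 reads).

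The study had 2 groups of 2 libraries, labelled as biological replicates of the 293T line. For the treated group the labels name a Snord89 ASO, a MOE gapmer given at 70 nM with a lipid transfection reagent. Medium was replaced at 24 hours and RNA was isolated at 48 hours. The other group is labelled as having no treatment, and no control ASO is named, although its labels carry the same transfection protocol. SNORD89 is a C/D box small nucleolar RNA, and a gapmer directs RNase H to the RNA it pairs with. Poly(A) RNA was sequenced as read pairs of 150 bases. The table holds a first and a second set of 2 libraries, and neither its columns nor the labels say which set received the ASO. Its name puts SNORD89 first and the untreated cells after, which does not state how the sets were entered. All directions are therefore given as first set against second set, and the libraries of a set are named by their place in the table. SNORD89 itself has no exon in such a table, and its depletion was not measured here.

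Nuclear pores are the channels of the nuclear envelope. Ring-shaped scaffolds of nucleoporins hold a central channel, whose phenylalanine-glycine repeats form the barrier that large molecules cross only with a carrier. Importins bring cargo in and release it when they bind RAN-GTP, while exportins bind cargo together with RAN-GTP and release it in the cytoplasm, where RAN-binding proteins help to hydrolyse the GTP. Many of these genes also make transcripts with extra or missing exons that end early and are targets of nonsense-mediated decay, and the annotation marks them as such.

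The coding exons on which the results below turn are shown first, as they read in the matched transcripts of GENCODE release 29, 5′ to 3′ on the strand of the gene. Coordinates are those of the table, on hg19. The 53 nt exon 3 of RANBP10 (chr16:67805937-67805989, minus strand) is the coding exon among those called below. The 54 nt exon 8 of NUP153 (chr6:17669206-17669259, minus strand) is a short exon whose length is a multiple of 3. Exon 12 of NUP88 (chr17:5291099-5291272, minus strand), exon 8 of NUP85 (chr17:73221198-73221332, plus strand), exon 29 of NUP98 (chr11:3707203-3707424, minus strand) and exon 2 of RANBP3 (chr19:5957929-5957984, minus strand) are each annotated in a longer and a shorter form, and capitals mark the stretch that the shorter form lacks.
RANBP10: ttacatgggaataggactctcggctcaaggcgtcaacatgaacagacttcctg
NUP153: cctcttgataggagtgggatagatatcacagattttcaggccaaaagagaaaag
NUP88: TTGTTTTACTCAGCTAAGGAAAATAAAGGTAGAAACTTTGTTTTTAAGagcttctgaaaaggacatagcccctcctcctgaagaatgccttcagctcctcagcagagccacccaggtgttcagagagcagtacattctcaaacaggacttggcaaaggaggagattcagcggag
NUP85: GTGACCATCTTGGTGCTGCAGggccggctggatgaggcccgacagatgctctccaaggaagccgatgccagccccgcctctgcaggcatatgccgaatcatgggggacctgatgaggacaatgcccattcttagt
NUP98: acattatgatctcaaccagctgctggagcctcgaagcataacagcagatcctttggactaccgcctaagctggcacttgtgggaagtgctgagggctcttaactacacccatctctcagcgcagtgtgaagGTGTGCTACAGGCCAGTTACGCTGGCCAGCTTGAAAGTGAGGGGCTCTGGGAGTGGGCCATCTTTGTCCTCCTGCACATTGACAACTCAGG
RANBP3: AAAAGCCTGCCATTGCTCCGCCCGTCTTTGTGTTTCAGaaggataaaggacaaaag
The shorter forms are 126 nt in NUP88, 114 nt in NUP85, 131 nt in NUP98 and 18 nt in RANBP3, so that 48, 21, 91 and 38 nt are in capitals. In NUP88 and NUP85 the capitals are a multiple of 3 and in NUP98 and RANBP3 they are not. In NUP88, NUP85 and RANBP3 the extra stretch is at the 5′ end of the exon, where the acceptor splice site differs. In NUP98 it is at the 3′ end, where the donor site differs.

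Exons of pore and transport genes were nearly always included. The inclusion level of an event is the share of inclusion among its inclusion and skipping reads, from 0 to 1. Reads are first divided by the length over which each form can be seen. Where an exon has a longer and a shorter form, each is set against the skipping reads alone. Reads on the splice site that both forms use can count as inclusion of either. A level does not show use of the site where the forms differ. The levels of such forms can therefore sum to above 1, and neither is the share of all transcripts with that form. The inclusion level, as the mean of the sets, had a median of 0.995 over the 464 events, against 0.983 over all tested events. It lay above 0.95 in 366 events (78.9%, against 66.1% of all tested) and below 0.05 in 43 events (9.27%, against 9.30%). Between these limits lay 55 events (11.9%, against 24.6%), on 44 exons of 18 genes. These events are called alternative exons below, so that an exon listed in several events counts more than once. NUP62, with 10, and RANBP3, with 9, held 19 of the 55, and 30 of the 48 genes had none. Member events were deeper than the table as a whole, with a median of 384 reads per library against 190. Every tested event had a skipping read in at least 1 library, so exons never seen skipped are not part of these counts.

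**Figure D1:**
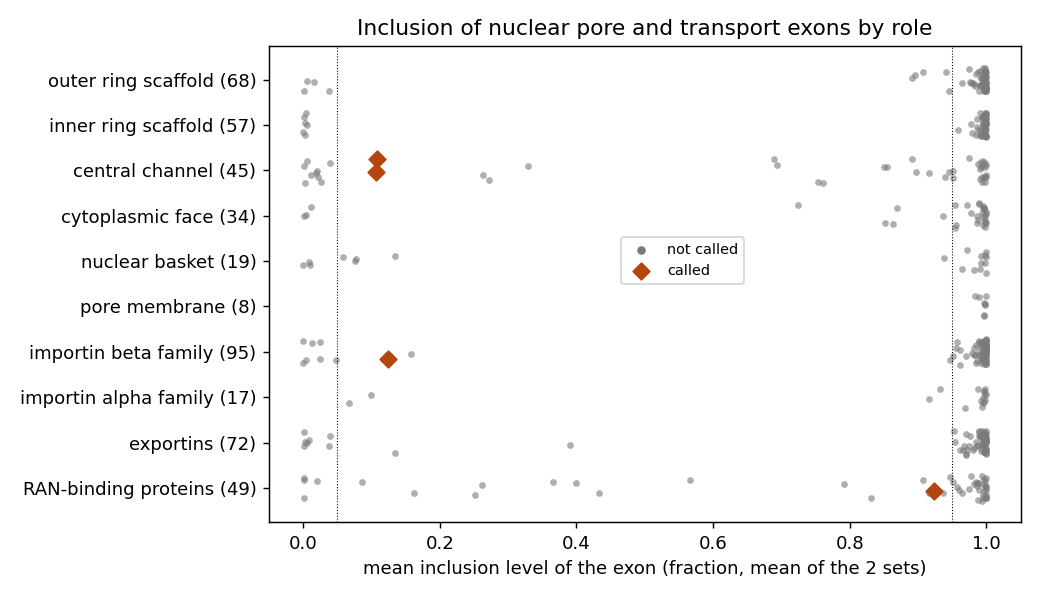
Mean inclusion level (fraction, x axis) of each of the 464 events, by the role of the gene (y axis, number of events in parentheses). Grey points were not called, orange diamonds were called at an FDR under 0.05 and a difference of at least 0.1, points are spread vertically only to separate them, and dotted lines mark 0.05 and 0.95. Most events lie above 0.95, the inner ring has none between the lines, and the central channel and the RAN-binding proteins have 16 and 15.

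The kind of exon went with its level. The 367 events on exons that are coding in the annotation had a median inclusion of 0.996, and 26 of them were alternative. Of those 26, 16 (61.5%) had a length that is a multiple of 3, against 45.2% of all 367. The 37 events on exons annotated in transcripts marked for nonsense-mediated decay and in no protein-coding transcript, in 20 genes, had a median of 0.252. Of these, 15 lay below 0.05 and 13 above 0.95. Some above 0.95 are longer forms of coding exons and share a splice site with them. In XPO1 a 1030 nt form had 733, 444, 147 and 233 inclusion reads, and the 102 nt coding form 1587, 971, 309 and 448. The level of such a form does not show that the decay form was made. The 30 events on non-coding exons of coding transcripts had a median of 0.0883, and 17 were alternative. The 24 events on exons of transcripts without a coding sequence had a median of 0.0347.

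The libraries of the second set differed more from each other than those of the first. Over the 55 alternative exons the median absolute difference in inclusion level was 0.0308 between the libraries of the first set and 0.0955 between those of the second, against 0.0494 and 0.0876 over all alternative exons tested. In 17 of the 55 (30.9%) the libraries of the second set were more than 0.2 apart. Library 2 of the second set was the one farthest from the others in 35 of the 55 (63.6%, against 43.2% of all alternative exons tested). Summed over the table, each library held 38613055 to 43929373 junction reads, and the median member event had 525 and 416 reads in the first set against 268 and 301 in the second.

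The comparison between the sets asked which of these exons changed when SNORD89 was targeted. By the authors' deposited table, 4 of the 464 events (0.862%) were called, with a false discovery rate (FDR) under 0.05 and a difference in inclusion level of at least 0.1. Over all tested events 1477 were called (2.71%), so the share among pore and transport genes was below the background. Of the 4 events, 1 was higher in the first set (background 1.34%) and 3 were lower (background 1.37%). They fell on 3 exons, in RANBP10, NUP62 and IPO7, at 21.0 to 58.8 reads per library. All 4 were alternative exons, of which 4 of 55 (7.27%) were called, against 11.0% of all alternative exons tested.

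RANBP10, a scaffold protein related to the RAN-binding protein RANBP9, had its 53 nt coding exon skipped more often in the second set. Its inclusion level was 0.985 and 1.00 in the libraries of the first set, against 0.809 and 0.9 in those of the second. These levels rest on 89 inclusion reads and 1 skipping read, 52 and 0, 23 and 4, and 61 and 5 reads. Both libraries of the second set were below both of the first, and the sets did not overlap. The authors' deposited table gave a difference (first set minus second) of 0.138 at an FDR of 0.00692. The length of this exon, printed above, is not a multiple of 3. With any 1 library left out the difference stayed between 0.0925 and 0.183.

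NUP62, a phenylalanine-glycine repeat nucleoporin of the central channel, had 2 of the 4 called events, both on a 114 nt exon of its 5′ leader (chr19:50421765-50421878, minus strand), which is non-coding. The events differ only in the donor site of the upstream exon, and both list the same 0, 3, 4 and 14 inclusion reads, so they are not separate measurements. With the donor labelled leader B in the plot of called exons, the inclusion level was 0 and 0.0342 in the first set against 0.0490 and 0.346 in the second. The high value was that of library 2, with 14 inclusion and 15 skipping reads, while the other 3 libraries held 0, 3 and 4 inclusion reads, and the sets did not overlap. The authors' deposited table gave this event a difference of -0.18 at an FDR of 0.00534. With leader C the levels were 0 and 0.0749 against 0.0831 and 0.274, and the authors' deposited table gave a difference of -0.141 at an FDR of 0.00771. The deepest event on this exon, spliced from another leader exon upstream (leader A), had 146 to 253 reads per library and levels of 0, 0.0195, 0.0157 and 0.0474. Here the deposited difference was -0.022 at an FDR of 0.0269, below the size asked of a call, and the sets overlapped. Without library 2 of the second set the differences of the called events were -0.0319 and -0.0457. NUP62 overlaps IL4I1 and AC011452.1 on the same strand in the annotation, so reads on junctions they share cannot be told apart.

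IPO7, an importin for ribosomal proteins and histone H1, had a called event on a 123 nt exon (chr11:9413745-9413867, plus strand). The exon is annotated in transcripts marked for nonsense-mediated decay and in no protein-coding transcript. Its level was 0.0150 and 0 in the first set against 0 and 0.484 in the second. All 12 inclusion reads of the second set were in library 2, beside 7 skipping reads, and library 1 had 4 reads in all. The authors' deposited table gave a difference of -0.234 at an FDR of 0.00957, although the sets overlapped. A deeper event on the same exon, joined to a nearer exon downstream, had 144 to 604 reads and levels of 0.00182, 0.00247, 0 and 0.0449. Both events use the junction from the same upstream exon and list 12 inclusion reads in library 2 of the second set, so they are not separate measurements. In the deeper event these reads stood beside 140 skipping reads. The deposited difference of the deeper event was -0.02 at an FDR of 0.478. Without library 2 of the second set the sign of the called event turned, to 0.00749.

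Of the 4 calls, 1 (RANBP10) kept a difference of at least 0.1 without library 2 of the second set. A quasi-binomial model was fitted per event, with the spread between libraries of a set, moderated across events, as its error. It gave 0 of the 464 events an adjusted p under 0.05 after Benjamini-Hochberg adjustment over the 54503 events. In the whole table it gave 1 event (0.00183%). At an unadjusted p under 0.05 it had 12 member events (2.59%, against 3.28% of all tested). limma, fitted to log2 ratios of inclusion over skipping reads, gave 0 at an adjusted p under 0.05, among members and over the table, and 14 member events (3.02%, against 4.87%) at an unadjusted p under 0.05. The smallest adjusted p among members was 0.861 in the quasi-binomial model and 0.955 in limma. The called events had unadjusted p-values of 0.0730 (RANBP10), 0.0314 and 0.0517 (NUP62) and 0.00278 (IPO7) in the quasi-binomial model with limma's moderated dispersion, and of 0.00718, 0.0238, 0.0436 and 0.0110 in limma. None of them passed the adjustment over all tested events.

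**Figure D2:**
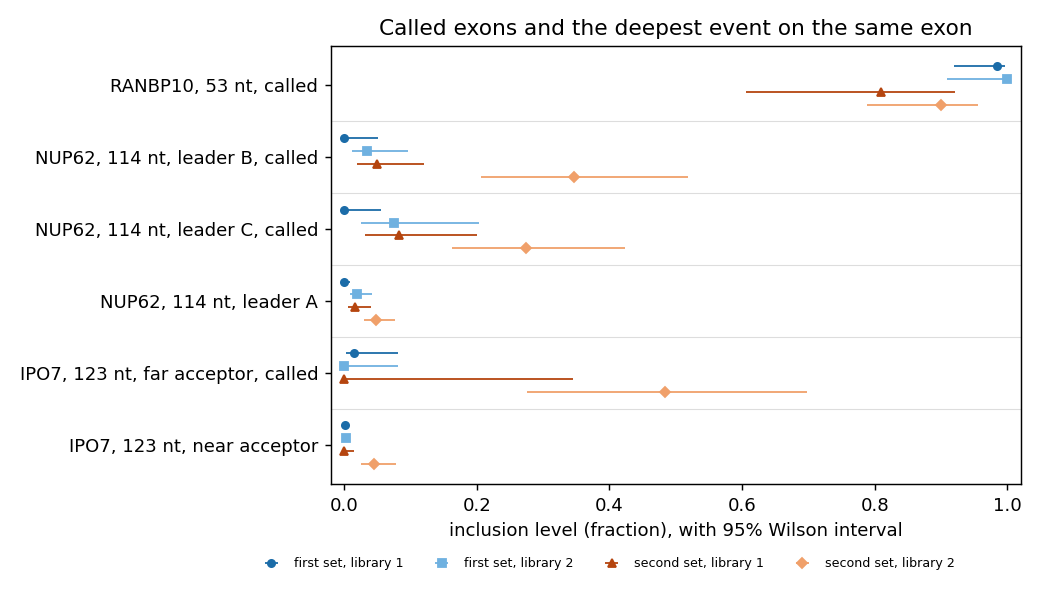
Inclusion level (fraction, x axis) in each of the 4 libraries for the 4 called events and for the deepest event on the same NUP62 and IPO7 exons. Points are libraries and bars are 95% Wilson intervals, which cover counting error only. In RANBP10 both libraries of the second set lie below the first set, while in NUP62 and IPO7 library 2 of the second set lies apart from the other 3.

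A further 13 events in 10 genes had an FDR under 0.05 in the authors' deposited table with a difference under 0.1, between 0.022 and 0.072 in size. With the 4 calls they made 17 of 464 events (3.66%, against 5.72% of all tested). Of the 13, 7 were higher and 6 lower in the first set, and 9 had a mean inclusion above 0.95 (66.1% of all tested). In 7 the sets did not overlap, against 22.8% of all tested events. The 13 were taken by their FDR for a difference between the sets, so this count is no separate evidence. Library 2 of the second set was the one farthest from the other libraries in 10 of the 13.

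Neighbouring exons left out by the same junction, in NUP50 and NUP88, made up 4 of the 13 events. In NUP50, a basket nucleoporin that helps importin alpha to release cargo, the 187 nt exon 4 and the 663 nt exon 5 are left out by the same junction, which had 1, 2, 0 and 18 reads. All but 3 of these reads were in library 2 of the second set. The 663 nt exon had inclusion levels of 0.996, 0.990, 1.00 and 0.869, and the authors' deposited table gave a difference of 0.058 at an FDR of 0.000922. The 187 nt exon, with levels of 0.996, 0.989, 1.00 and 0.898, had a deposited difference of 0.043 at an FDR of 0.00104. Together the exons hold 850 nt, not a multiple of 3.

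NUP88, which anchors NUP214 at the cytoplasmic face, showed the same arrangement. Its 159 nt exon 11 and the 126 nt form of exon 12 are left out by a junction with 3, 7, 10 and 34 reads. Exon 11 was included at 0.988 and 0.969 in the first set against 0.960 and 0.902 in the second, and the sets did not overlap. The authors' deposited table gave exon 11 a difference of 0.047 at an FDR of 0.00265 and the 126 nt form 0.06 at an FDR of 0.00810. The exons together hold 285 nt, a multiple of 3. NUP88 overlaps RPAIN and RABEP1 on the opposite strand.

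Such a junction over 2 coding exons was listed for 24 pairs of exons in 16 genes, and in 13 pairs the summed length was a multiple of 3. Only 5 pairs had at least 20 such reads over the 4 libraries. Besides NUP50 and NUP88 these were exons 8 and 9 of NUP85 (19, 28, 22 and 4 reads, 258 nt together), 2 exons of RANBP3 of 204 and 56 nt (20, 13, 22 and 11 reads) and 2 exons of NUP214 of 85 and 62 nt (7, 2, 2 and 12 reads, 147 nt together). In 3 of the 5 pairs, in NUP85, NUP88 and NUP214, the summed length was a multiple of 3.

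In the inner ring, differences between the sets were small. None of its 57 events (NUP93, NUP205, NUP188, NUP155 and NUP35) was alternative, and the largest difference was 0.02. By the deposited p-values, the quasi-binomial model and limma alike, 0 of the 57 had an unadjusted p under 0.05, against 14.3%, 3.28% and 4.87% of all tested events in that order. In the outer ring, 59 of 68 events were above 0.95, all 5 alternative events were in NUP85, and 67 of 68 differed by less than 0.05. NUP160, of the same ring, had 8 reads that skipped its 223 nt exon 4, all in library 2 of the second set, where inclusion was 0.856 against 1.00 in the other 3 libraries. The authors' deposited table gave it a difference of 0.072 at an FDR of 0.0310. NUP210, the membrane ring protein among these genes, had 8 events with a lowest mean inclusion of 0.984 and differences of at most 0.033.

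NUP85, which belongs to the outer ring complex, is annotated with alternative acceptors at exon 8. Both forms end at the same donor, so reads on its junction downstream can count as inclusion of either. The levels therefore do not show how often each acceptor was used. The 135 nt form had inclusion levels of 0.949, 0.944, 0.949 and 0.921 and the 114 nt form 0.894, 0.8996, 0.9003 and 0.872, measured against the same skipping junction. In both, library 2 of the second set was the lowest, and the deposited difference was 0.011 with an FDR of 1 in the authors' table. Against the junction that leaves out exons 8 and 9 together, the 135 nt form had 0.907 and 0.837 in the first set against 0.871 and 0.968 in the second. Here library 2 of the second set was the highest, the sets overlapped, and the authors' deposited table gave a difference of -0.048 at an FDR of 0.556.

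The central channel genes held more alternative events, 16 of 45, on 9 exons. Of these events 10 were in the NUP62 leader, where the same exon is listed with several neighbours. With the deepest of its upstream exons, the 122 nt leader exon of NUP62 (chr19:50430951-50431072, minus strand) had levels of 0.292, 0.261, 0.265 and 0.269, at 401 to 663 reads. Its 155 nt form had 0.252, 0.251, 0.251 and 0.2997. In both forms with this upstream exon the libraries lay close together and the sets overlapped. With leader B upstream the 122 nt and 155 nt forms ran from 0.585 to 0.833 and from 0.596 to 0.85. With leader C they ran from 0.717 to 0.778 and from 0.7175 to 0.809. Joined to a nearer exon downstream, they ran from 0.663 to 1.00 and from 0.739 to 1.00. The sets overlapped in these events too. NUP62CL, a relative of NUP62, had a 112 nt coding exon 4 (chrX:106394086-106394197, minus strand) at 0.301 and 0.229 in the first set against 0.360 and 0.424 in the second. Both libraries of the second set were higher, by 0.127 in the means of the sets, the FDR in the authors' deposited table was 0.15 and the adjusted p 0.861 in the quasi-binomial model. Its 151 nt exon 5 had 0.903, 0.820, 0.821 and 0.856.

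NUP98 encodes both NUP98 and the scaffold protein NUP96 in a single precursor. Its 222 nt exon 29, printed above, had inclusion levels of 0.932, 0.926, 0.962 and 0.845, and the 131 nt form had 0.870, 0.868, 0.930 and 0.747. Both forms share the skipping reads, which numbered 23, 26, 10 and 52. Reads on their common acceptor can also count as inclusion of either form, so the level of the 131 nt form does not show use of its own donor. The libraries of the second set lay on either side of the first, so the sets overlapped, and the FDR was 0.748 and 1 in the authors' deposited table. The deepest NUP98 event, a 155 nt coding exon 31, was included at 0.987 to 0.993 in all 4 libraries.

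At the cytoplasmic face, NUP88 exon 12 was the deepest alternative exon, with 625 to 859 reads for the 126 nt form. This form had inclusion levels of 0.857, 0.862, 0.850 and 0.884, and the 174 nt form had 0.709, 0.714, 0.711 and 0.762. Both forms share the donor site, so reads on its junction can count for either. The level of the 174 nt form therefore does not show use of its own acceptor. Library 2 of the second set was highest in both forms. The deposited differences were -0.008 and -0.025 with an FDR of 1 in the authors' table. RANBP2, the large filament protein that binds RAN, was skipped by 1 read at its deepest exon of 205 nt, with an inclusion of 0.998 to 1.00. NUP214 had 2 alternative exons, the 85 and 62 nt exons skipped together, with levels of 0.761 to 0.9495 and 0.685 to 0.948.

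In the basket, NUP50 had a set of non-coding leader exons at low inclusion. The deepest of those above 0.1, of 165 nt (chr22:45566869-45567033, plus strand), had levels of 0.135 and 0.148 in the first set against 0.158 and 0.0971 in the second. The libraries of the second set again lay on either side of the first. The 54 nt exon 8 of NUP153, printed above, was included at 0.903 and 0.926 in the first set against 0.925 and 1.00 in the second. Its skipping reads numbered 34, 18, 5 and 0, and the authors' deposited table gave a difference of -0.048 at an FDR of 0.0105. Library 1 of the second set lay within the range of the first. The deepest NUP153 event, a 357 nt coding exon 19, was included at 0.986 to 0.997.

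**Figure D3:**
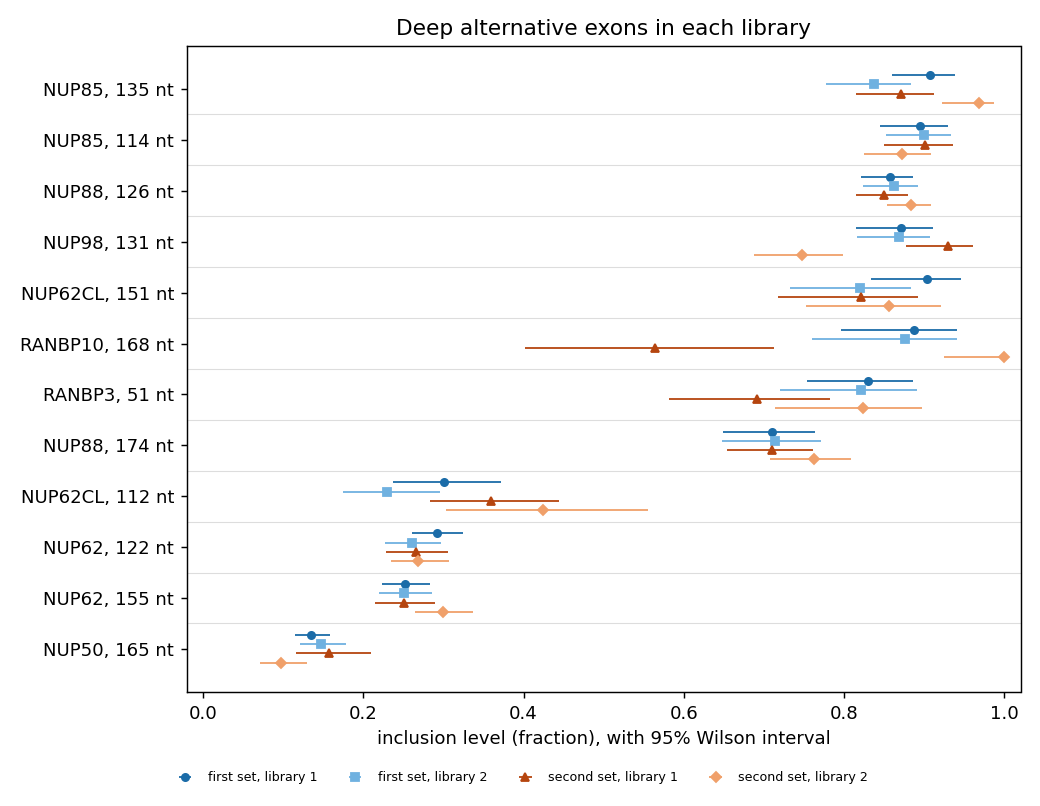
Inclusion level (fraction, x axis) in each of the 4 libraries for the 12 exons with most reads among those with a mean inclusion between 0.1 and 0.9. Points are libraries and bars are 95% Wilson intervals, which cover counting error only. The libraries of the first set lie close together for most exons, and RANBP10 168 nt and NUP98 131 nt have the libraries of the second set on opposite sides of the first.

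The importin beta family, with 95 events in 11 genes, had 3 alternative exons. KPNB1, importin beta itself, was included at 0.999 to 1.00 at its deepest exon of 83 nt, with 2837 to 4382 reads per library. TNPO1, the carrier of proteins with a proline-tyrosine signal, was at 0.996 to 1.00 at its deepest exon of 96 nt. IPO13, which carries cargo in both directions, had a 53 nt coding exon 15 at 0.967 and 0.934 in the first set against 0.981 and 1.00 in the second, and the sets did not overlap. In the authors' deposited table its difference was -0.04 at an FDR of 0.00366. TNPO3, the importin of serine-arginine-rich splicing factors, included a 161 nt non-coding exon at 0.0243 and 0.0536 in the first set against 0.00426 and 0.0186 in the second. That rests on 17, 29, 1 and 3 inclusion reads, with no overlap between the sets and a deposited difference of 0.028 at an FDR of 0.0173. In the importin alpha family, 4 of 17 events were alternative, 2 each in KPNA1 and KPNA5, and 3 of the 17 (17.6%, against 14.3% of all tested) had a deposited p-value under 0.05, and 0 (against 5.72%) had an FDR under 0.05. Neither the quasi-binomial model nor limma gave any of the 17 an unadjusted p under 0.05.

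Exportins had 72 events, 63 of them above 0.95. XPO1, the exportin of leucine-rich export signals, was included at 0.997 to 1.00 at its deepest exon of 195 nt, with 1726 to 2721 reads. XPO6, the exportin of actin, had its 91 nt coding exon 2 at 0.951 and 0.935 in the first set against 0.962 and 0.996 in the second, without overlap. The authors' deposited table gave this event a difference of -0.036 at an FDR of 0.0119, and a second event on the same exon -0.038 at an FDR of 0.0413. XPO4, an exportin of the translation factor eIF5A, had a 178 nt exon at 0.910 and 0.970 against 1.00 and 1.00, on 51 and 26 reads in the second set, with a deposited difference of -0.06 at an FDR of 0.0418. XPO5, which exports microRNA precursors, had a 156 nt exon at 0.984, 0.987, 0.988 and 0.921, where library 2 of the second set was the low value. Its deposited difference was 0.031 at an FDR of 0.0148.

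The RAN-binding proteins had 15 alternative events, on 14 exons, among 49 events. RANBP1, a cofactor of RAN GTP hydrolysis, had the deepest events of all, up to 16472 reads per library, and none of its 8 events was alternative. RANBP3, a cofactor of XPO1, had its 56 nt exon 2 at 0.917, 0.918, 0.869 and 0.928, and an annotated 51 nt form, non-coding, at 0.830, 0.821, 0.691 and 0.824. In both, library 1 of the second set was the lowest and library 2 lay near the first set. The 18 nt form, against the same skipping reads, had 0.6465 and 0.6577 in the first set against 0.3782 and 0.5796 in the second. Here the sets did not overlap, as in 33.3% of all alternative exons tested. The authors' deposited table gave it a difference of 0.174 at an FDR of 0.361. RANBP10 had a second alternative coding exon, of 168 nt, at 0.887 and 0.876 in the first set against 0.564 and 1.00 in the second. The 12 skipping reads of library 1 of the second set stood against 0 in library 2, and the FDR was 1 in the authors' deposited table. The difference was -0.118 without library 1 of the second set and 0.318 without library 2. RANBP17, an exportin-like protein, had the largest difference of all members, -0.237 on a 181 nt exon with 21.5 reads, and its levels of 0.294 and 0.267 against 1.00 and 0.0345 overlapped.

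Over the 55 alternative exons, inclusion was higher in the first set in 30 and higher in the second in 25, with a median difference of 0.0106, against 0.00432 over all alternative exons tested. Without library 1 of the second set the median was -0.00999 and without library 2 it was 0.000872. The median size of the difference was 0.04, against 0.055. In 9 of the 55 (16.4%, against 33.3%) the sets did not overlap. Over all 464 events 84 did not overlap (18.1%, against 22.8%), and 11 (2.37%, against 7.19%) differed by at least 0.1. Of these 11, the 7 that were not called had 21.5 to 118 reads per library.

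**Figure D4:**
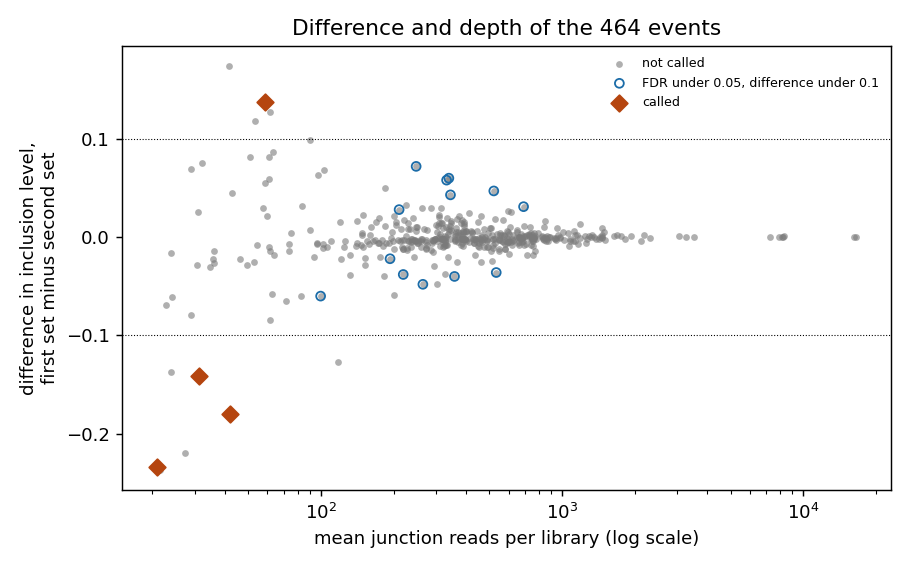
Difference in inclusion level (y axis, first set minus second) against the mean number of junction reads per library (x axis, log scale) for the 464 events. Grey points were not called, open circles had an FDR under 0.05 with a difference under 0.1, and orange diamonds were called. The 4 called events have 21.0 to 58.8 reads and no event above 118 reads differs by 0.1 or more.

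Junction reads on the deepest event of each gene, per 1000000 junction reads of the library, served to compare how much signal each gene gave. These values reflect RNA level, junction coverage and the make-up of the library together, and no test was made. The ratio of the first set to the second had a median of 1.37 over the 48 genes, against 1.21 over all genes, and exceeded 1 in 40 genes (83.3%, against 67.9%). IPO7 had the highest ratio, 3.21, with 29.8 and 20.1 in the first set against 8.72 and 6.78 in the second. NUP43 (2.40), TNPO1 (2.26) and XPO7 (2.04) followed. RANBP1 (0.789), NUP85 (0.791) and IPO13 (0.893) were lowest. IPO7, TNPO2 and RANBP1 are annotated with a small nucleolar RNA within the gene on the same strand, and their ratios were 3.21, 1.70 and 0.789.

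**Figure D5:**
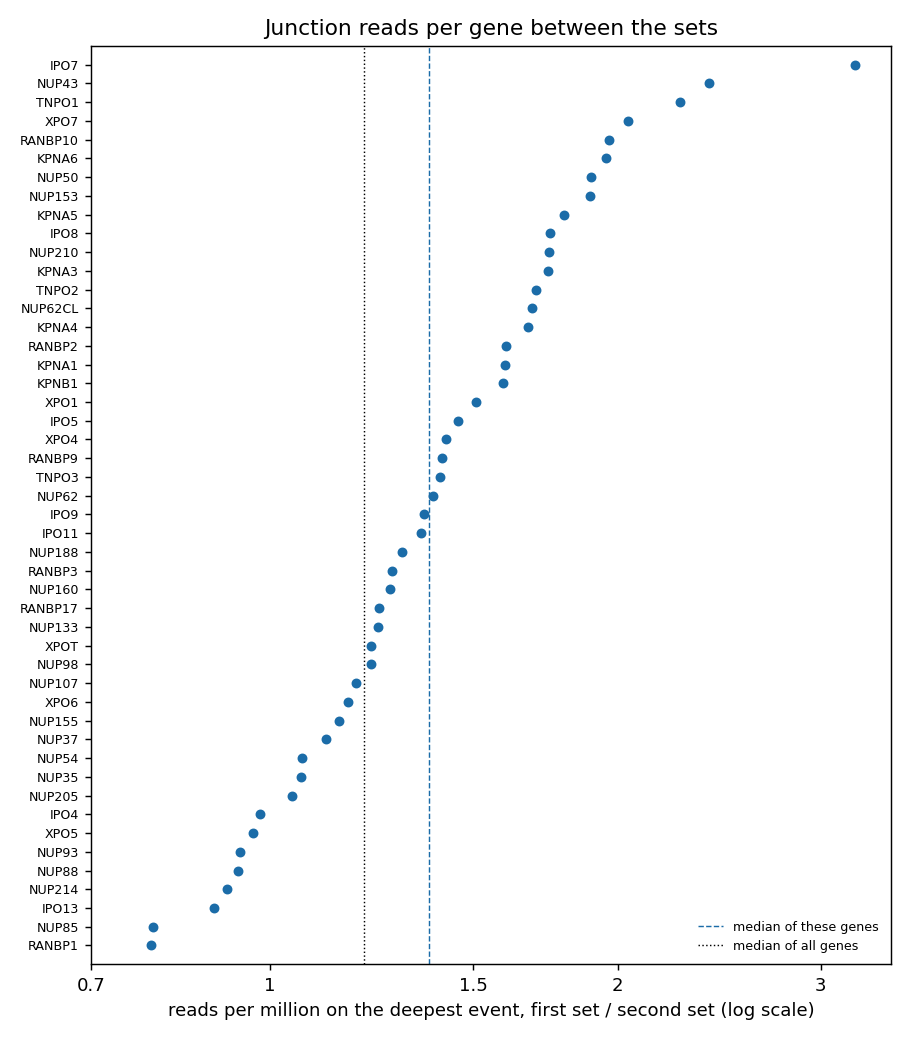
Ratio of the first set to the second in junction reads per 1000000 on the deepest event of each of the 48 genes (x axis, log scale). Points are genes, the dashed line is their median and the dotted line the median of all 9999 genes. IPO7 lies highest at 3.21 and RANBP1 lowest at 0.789.

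Other genes of the pore, the RAN cycle, messenger RNA export and the nuclear envelope, 55 in all, were read in the same way, and 51 of them had 326 events of sufficient depth. Of the 326, 5 (1.53%) were called from the authors' deposited table, 4 higher and 1 lower in the first set, against 2.71%, 1.34% and 1.37% of all tested. SUN1, an inner nuclear membrane protein that links the lamina to the cytoskeleton, had an 84 nt coding exon at 0.957 and 0.957 in the first set against 0.867 and 0.668 in the second. Its 111 nt coding exon had 0.945 and 0.935 against 0.815 and 0.571. The authors' deposited table gave these SUN1 exons differences of 0.189 and 0.247 at FDR values of 0.000496 and 0.00114. The SUN1 exons are left out by the same junction. DDX19B, a helicase that acts in messenger RNA export at the cytoplasmic face, had a 54 nt coding exon at 0.870 and 0.713 against 0.556 and 0.511, with a deposited difference of 0.258 at an FDR of 0.00232. Its 136 nt exon had a deposited difference of 0.16 at an FDR of 0.00350. Of these 5 calls, 2 (SUN1 111 nt and DDX19B 54 nt) kept a difference of at least 0.1 when library 2 of the second set was left out. The sets did not overlap in any of the 5 events, against 22.8% of all tested events and 33.3% of alternative exons without overlap. The 5 were taken by their FDR and difference between these sets, so this count is no separate evidence. The quasi-binomial model gave each of the 5 an adjusted p of 0.861.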

How the data were processed

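Poly(A) RNA libraries of 293T cells, 2 without and 2 with the ASO, were available as 1 skipped-exon table in the layout of rMATS, per the file headers. Reads were trimmed with cutadapt and aligned with STAR to hg19, per the submitters' processing notes, without versions; the rMATS version and settings are not given in the sources used here. Per the file headers, each event has inclusion and skipping junction reads and an inclusion level for each of 4 libraries, comma-joined by set. The p-value and FDR are the authors', as deposited, and the difference is a score from the deposited table, first set minus second. Inclusion levels were recomputed from reads and form lengths, and the differences that follow matched those deposited to within 0.00138. Whether ASO libraries are the first or the second set is not stated.

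Events with a mean of at least 20 reads were kept. The quasi-binomial model was fitted in R 4.3.3 with limma 3.58.1 (squeezeVar, trend over depth, prior from events with at least 10 reads of the rarer form, dispersion at least 1) and tested on simulated data. The form of the prior was settled after results of earlier forms had been seen. limma on the log2 ratio used a pseudocount of 0.5. Exons were matched to GENCODE 29 by spacing within the gene (464 of 464 once), and no position was converted. On 69 exons more than 1 event was listed (154 events), and such events share reads.

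The members, the lists and the rule for naming were chosen with earlier results of these data known. Named were the called events, events with a quasi-binomial p under 0.05, a difference of at least 0.1 and sets that do not overlap, the 12 deepest exons with inclusion between 0.1 and 0.9, the deepest event of NUP98, NUP153, RANBP2, XPO1, KPNB1 and TNPO1, and called further genes, of which 1 event is counted but not reported here. The other events with values, among them those with an FDR under 0.05 and a smaller difference, were chosen after their values were seen. Wilson intervals cover counting error only. The quasi-binomial and limma p-values take as error the spread between the libraries of a set, moderated by that of other events. The settings behind the deposited p-values are not known here. The labels call the libraries biological replicates without naming separate cultures.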

Additional observations from a re-analysis of the deposited data

How the results depend on the processing

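The 4 calls among pore and transport genes became 1 with at least 50 reads, 8 with a difference of at least 0.05, 1 with a difference of at least 0.2 and 1 with only the deepest event of each exon. They were 6 with no read minimum and 3 where the sets must not overlap. Leaving out each library in turn gave 1 to 4, with 1 without library 2 of the second set. The 5 calls among the further genes became 3 with at least 50 reads, 2 with a difference of at least 0.2 and 1 with the deepest event of each exon, and 2 to 5 when each library was left out, with 2 without library 2 of the second set. The deposited FDR rests on all 4 libraries and stayed as it was when a library was left out. No share over all tested events is given under the changed limits, so these counts are not set against a background. The higher read minimum and the 1 event per exon leave fewer events, and otherwise the cause was not tested. The quasi-binomial model called 0 member events under every setting run, with 0 to 37 at an unadjusted p under 0.05 when each library was left out; there the lone library is assumed to vary like the other set, so these counts say nothing on stability. Added after seeing the data, the first form of its prior gave 25 and the second form 14 at an unadjusted p under 0.05, and 0 adjusted. The median difference over alternative exons ran from -0.00999 to 0.0142 under these settings, and turned sign without library 1 of the second set. The median inclusion level of these exons had an SD of 0.0282 within sets. That is a spread of levels, not of the median difference, so it does not show whether the median difference is stable. The difference of the called IPO7 event ran from -0.4768 to 0.00749 when each library was left out, turning sign without library 2 of the second set, which holds all 12 inclusion reads of that set. Of the other values of named events under these settings, 105 moved by less than the spread between libraries and 4 by more. The 4 were small moves at exons near full inclusion, in NUP153, RANBP2 and XPO1. The 105 include NUP62 with leader B, which went from -0.180 to -0.0319 without library 2 of the second set. These counts therefore do not measure stability. The spread between libraries is wide. In 13 of 22 named events, IPO7 included, the difference turned sign when some library was left out. Among them were RANBP10 168 nt (-0.118 without library 1 of the second set), and NUP98 131 nt (-0.0606) and NUP50 165 nt (-0.0163) without library 2. RANBP3 51 nt went to 0.00170 without library 1 of the second set. The edgeR alternative was not run, since the reads are comma-joined by set. No paired analysis was possible because the libraries of a set carry no replicate numbers in the table. Depth limits the called events, at 21.0 to 58.8 reads per library.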
